A study of Mus musculus with 15 samples.

Results

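Th, Slc17a8, Tafa4 (Fam19a4 in the annotation) and Cdh9 are 4 genes used to mark C low-threshold mechanoreceptors (C-LTMRs) of the dorsal root ganglion (DRG). The rule names them by symbol, and they are 4 of the 39179 gene rows in the count table and 4 of the 16976 genes with enough reads to be tested. Their messenger RNA was followed in bulk lumbar 4 to 6 DRG of 15 mice, 1 library each, on a mixed background that was mostly C57bl6 and at an age of 3 to 6 months. Knockout mice carried Wnt1-Cre and the floxed allele labelled mirflox/flox, so that Cre, driven by the Wnt1 promoter in cells of the neural crest, deletes the microRNA-183 cluster from neurons and glia of the ganglion alike. Controls were Wnt1-Cre or wild-type mice. There were 4 knockout naive libraries (replicates 4, 5, 8 and 9), 5 control naive libraries (1, 2, 3, 6 and 7), 3 knockout SNI libraries (13, 19 and 21) and 3 control SNI libraries (15, 18 and 23). Control naive replicate 7 and control SNI replicates 18 and 23 were wild type. SNI is spared nerve injury, a model of neuropathic pain in which the tibial and common peroneal branches of the sciatic nerve are ligated and cut while the sural branch stays intact. The time from injury to tissue collection is not given in the sources used here.

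C-LTMRs are unmyelinated sensory neurons of hairy skin that respond to light, slow touch and to skin cooling, and their endings surround hair follicles. In mouse DRG they are known for the catecholamine enzyme tyrosine hydroxylase (Th), the vesicular glutamate transporter VGLUT3 (Slc17a8) and the secreted protein TAFA4. Mice that lack VGLUT3 or TAFA4 have altered mechanical pain after injury, which is why these neurons are studied in models such as SNI. Cdh9 encodes a type II cadherin, a cell adhesion protein that is detected in C-LTMRs in single-cell surveys of mouse DRG.

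The deleted cluster encodes 3 microRNAs that silence messenger RNAs by pairing of the seed, bases 2 to 8 of the microRNA, with sites in the 3′ UTR. Their mature sequences are shown because they define the sites looked for in the 4 markers. They come from RefSeq on GRCm38.p6, all on the minus strand of chromosome 6, and the capitals mark the seed.
miR-183-5p (chr6:30169711-30169732): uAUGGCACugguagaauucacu
miR-96-5p (chr6:30169506-30169528): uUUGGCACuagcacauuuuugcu
miR-182-5p (chr6:30165962-30165986): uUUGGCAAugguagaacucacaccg
No 2 of the 3 share a whole seed, although miR-183-5p and miR-96-5p differ only in its first base. The seeds of miR-96-5p and miR-182-5p differ only in the last base.

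The 3′ UTRs of the markers were searched on the transcript strand for 3 kinds of site. An 8mer pairs with the whole seed and ends in A (GTGCCATA for miR-183-5p, GTGCCAAA for miR-96-5p, TTGCCAAA for miR-182-5p). A 7mer-m8 is the 8mer without its last A, and a 7mer-A1 is the 8mer without its first base, which gives TGCCATA for miR-183-5p and 1 shared TGCCAAA for the other microRNAs. A 7mer within an 8mer was not counted again. None of the 4 markers held an 8mer or a 7mer-m8 in any annotated 3′ UTR. Cdh9 held a 7mer-A1 of miR-183-5p, 424 bases after the stop codon on the plus strand of chromosome 15 (GRCm38), in both of its annotated 3′ UTRs of 525 and 852 bases. It is shown with its flanks because it is the only match among the markers, and the capitals mark the 7 bases.
Cdh9 site (chr15:16856655-16856683): gtgactattacTGCCATAtttatttagtg
The longest 3′ UTRs of Th, Tafa4 and Slc17a8, of 279, 1358 and 2296 bases, held no site of any kind. Among 14443 tested genes with an annotated 3′ UTR, 9.33% held an 8mer and 34.3% held any of the 3 kinds. Among genes with a 3′ UTR within 20% of the length of that of Slc17a8, 49.6% held one, and the shares were 34.4% at the length of Tafa4, 21.8% at that of Cdh9 and 8.24% at that of Th. A match says only that the letters are there, and no match says only that they are not in these windows.

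The libraries held 5.25 to 10.8 M gene counts, and 3 counts, the limit that a count of 0 allows, correspond to 0.273 to 0.646 CPM (the count scaled to a library of 1 M counts) by counting error alone. Control SNI replicate 23 stood apart, with the fewest counts and 7.43% of them from mitochondrial genes, against 2.26% to 3.60% in the other 14 libraries. The precursor genes of the 3 microRNAs are too short for a poly(A) library to check the deletion. Over all 15 libraries Mir183 had 0 counts, Mir96 had 1 and Mir182 had 2, and the counts that were seen lay in control libraries. The deletion could therefore not be checked in these data, and genotypes are those of the labels.

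All 4 markers were detected in each of the 15 libraries. Th (ENSMUSG00000000214, minus strand of chromosome 7, 142892752 to 142931128) had 450 to 1184 counts per library. Tafa4 (ENSMUSG00000046500, minus strand of chromosome 6, 96831203 to 97060413) had 278 to 514 counts. Cdh9 (ENSMUSG00000025370, plus strand of chromosome 15, 16728756 to 16857094) had 58 to 139 counts, and Slc17a8 (ENSMUSG00000019935, minus strand of chromosome 10, 89574020 to 89621253) had 42 to 156 counts. The lower counts of Cdh9 and Slc17a8 carry more counting error. Their biological coefficients of variation in the fit, the spread between replicates beyond counting error, were 18.6% and 20.6%, beside 19.1% for Th and 14.6% for Tafa4. The common value over all tested genes was 15.3%.

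Per kilobase of the longest coding transcript, Th was the most abundant of the 4, with a mean level of 46.5 CPM per kb over the 15 libraries. Tafa4 followed with a level of 20.3 CPM per kb, or 7.81 on the length of all its annotated exons, which include those of a retained-intron transcript. Cdh9 had a level of 3.06 and Slc17a8 a level of 2.01 CPM per kb. In all 4 groups, levels of Th lay above those of Tafa4, and levels of Tafa4 above those of Cdh9 and Slc17a8, without overlap between libraries. Levels of Cdh9 and Slc17a8 overlapped in both control groups, at 2.71 to 3.56 and 1.65 to 3.19 CPM per kb in control naive ganglia and at 2.80 to 5.18 and 2.20 to 3.44 CPM per kb in control SNI ganglia. In knockout ganglia they did not overlap, with Cdh9 at 2.44 to 3.89 and Slc17a8 at 0.958 to 2.08 CPM per kb in naive animals, and Cdh9 at 1.55 to 2.79 and Slc17a8 at 1.12 to 1.30 CPM per kb after SNI.

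**Figure D1:**
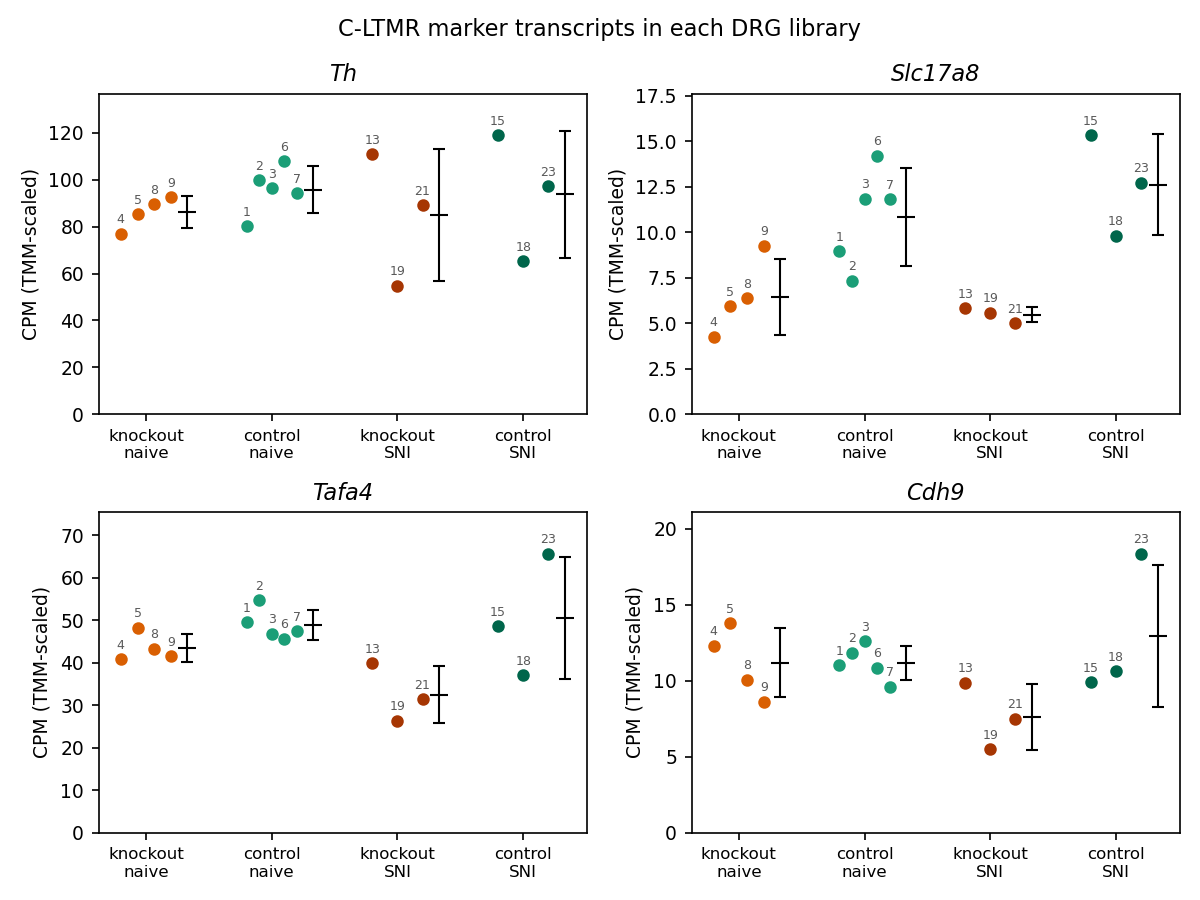
Level of each of the 4 markers in CPM (vertical axis, from 0) in every library, with knockout left of control; numbers are replicates, and the bars beside the points give the group mean ± SD. The 3 knockout SNI libraries have Slc17a8 at 5.00 to 5.81 CPM and all 3 control SNI libraries lie above them, whereas the groups overlap for Th in all comparisons.

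Th is also the defining enzyme of sympathetic neurons, so the label was checked against other noradrenergic genes. Against 12758 counts of Th over the 15 libraries, Dbh, which makes noradrenaline, had 36 counts, the noradrenaline transporter gene Slc6a2 had 74, and the sympathetic transcription factor genes Hand1, Hand2 and Gata3 had 1, 1 and 17. Phox2a had 42 counts. These reads were not spread evenly over the libraries. Knockout SNI replicate 19 had the highest levels of Dbh, Slc6a2, Phox2a and Gata3, at 1.42, 1.52, 1.14 and 0.66 CPM. Only Chrna3, a nicotinic receptor subunit that sensory neurons express too, passed the filter among these sympathetic markers. In bulk ganglia, fewer cells of a type and less RNA per cell cannot be told apart, and none of the values below assigns a transcript to a cell.

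Knockout against control asks what loss of the cluster does to the markers before and after injury. Slc17a8 was lower in knockout ganglia, to 0.433 times its control level after SNI, which passed the test, and to 0.589 times in naive animals, which did not. Th had log2 fold changes of -0.15 and -0.14 in naive and SNI animals, and its groups overlapped. Tafa4 and Cdh9 lay close to control in naive ganglia and lower in knockout SNI ganglia, without passing the test. In naive animals 0 of the 4 markers were called at an adjusted p under 0.05 by edgeR's quasi-likelihood test, where 1.89% of all tested genes were called, and all 4 markers overlapped between the groups, where 9.63% of genes did not. With knockout and control compared after SNI, 1 of the 4 was called, against 1.04% of all genes in either direction and 0.377% downward. Slc17a8 and Cdh9 were the 2 markers whose SNI groups did not overlap, a pattern that 16.2% of tested genes showed in either direction and 8.19% downward. After SNI all 4 log2 fold changes were below 0, as were those of 51.1% of all genes. The median log2 fold change of the 4 was -0.16 in naive and -0.68 in SNI animals, beside 0.00 and -0.01 for all tested genes. Of the 4, 3 had a log2 fold change below 0 in both states, against 26.8% of all tested genes, and the exception was Cdh9 at 0.01 in naive animals. The naive and SNI comparisons share no library. The animal numbers of the labels are 948 to 956 in knockout SNI, 974 to 976 in control SNI and 1041 to 1082 in the naive groups. The number range and the genotype can therefore not be told apart after SNI, nor the range and injury in SNI against naive, and only the naive groups share ranges.

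SNI against naive asks what injury does to the markers. In control ganglia the 4 log2 fold changes lay between -0.03 (Th) and 0.21 (Slc17a8), and 0 of the 4 were called, where 2.48% of genes were. All 4 overlapped between the groups, where 8.21% of genes did not. In knockout ganglia all 4 log2 fold changes were below 0, from -0.02 for Th to -0.57 for Cdh9, as were those of 52.4% of all genes. None was called there, where 10.1% of tested genes were. Tafa4 was the only marker whose knockout SNI and knockout naive libraries did not overlap, a pattern shown by 34.2% of all genes in either direction and 17.6% downward. The difference between the injury effects, knockout minus control, was called for 0 of the 4 and for 0 of the 16976 tested genes by edgeR, although 13.4% of genes had an unadjusted p under 0.05. DESeq2 called 13 genes for this difference and limma-voom 0, and none of these calls was a marker. The injury response of no marker was thus shown to differ between the genotypes, and the interval of each difference is given with its gene.

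**Figure D2:**
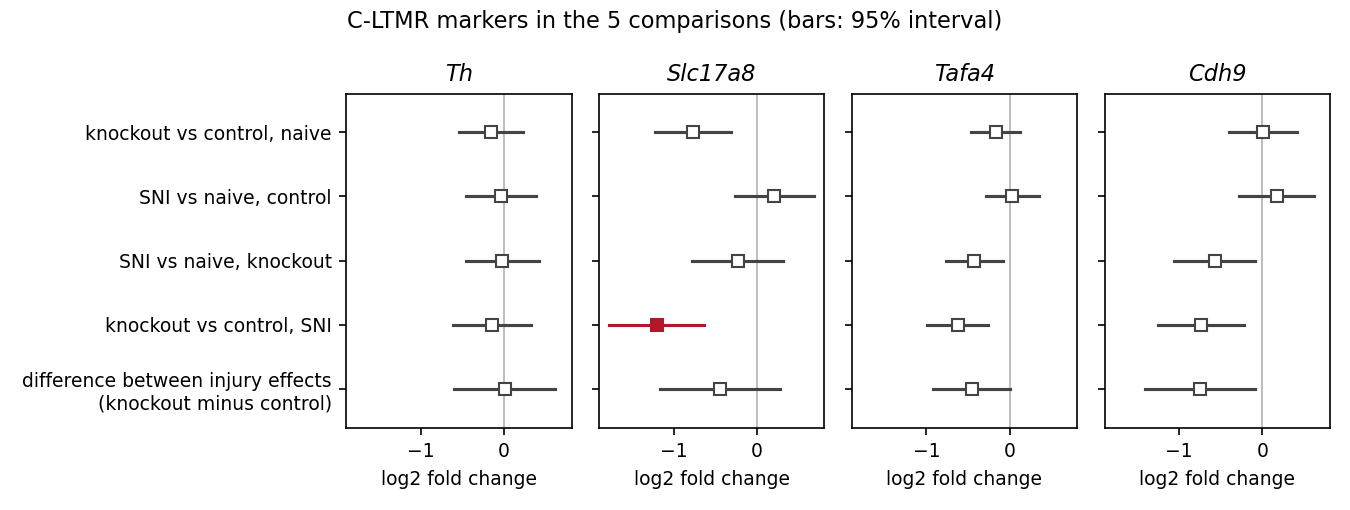
Log2 fold change of each marker (horizontal axis, points) with its 95% interval (bars) in 5 comparisons; the filled point passed an adjusted p of 0.05 and the open points did not. Slc17a8 is the only marker with a filled point, at -1.21 for knockout against control after SNI.

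Slc17a8 encodes VGLUT3, which loads glutamate into synaptic vesicles. In CPM it measured 5.81, 5.59 and 5.00 in the knockout SNI libraries, against 15.3, 9.81 and 12.7 in the control SNI libraries. All 3 knockout libraries lay in a narrow band below the lowest control. The group means were 5.47 ± 0.419 and 12.6 ± 2.76 CPM (SD, n = 3 each), and the log2 fold change was -1.21 (SE 0.27, 95% interval -1.77 to -0.64, edgeR adjusted p = 0.04). In naive animals it measured 4.27, 5.95, 6.37 and 9.27 CPM in knockout libraries, against 8.96, 7.35, 11.9, 14.2 and 11.8 CPM in control libraries. Knockout replicate 9 lay above control replicates 1 and 2, so the groups overlapped. The naive means were 6.46 ± 2.08 (SD, n = 4) in knockout and 10.8 ± 2.70 (SD, n = 5) in control, with a log2 fold change of -0.76 (SE 0.22, 95% interval -1.22 to -0.31, edgeR adjusted p = 0.0925). The order of the groups from low to high was thus knockout SNI, knockout naive, control naive and control SNI. No neighbours in that order differed by a test that passed. For SNI against naive the log2 fold change was -0.23 in knockout (95% interval -0.78 to 0.32, edgeR adjusted p = 0.591) and 0.21 in control (95% interval -0.26 to 0.69, edgeR adjusted p = 0.684). The difference between these injury effects was -0.44 (95% interval -1.17 to 0.28, edgeR adjusted p = 0.545), so the size of the knockout effect was not shown to differ between naive and injured ganglia.

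The SNI call of Slc17a8 lay near the threshold. It was lost when knockout SNI replicate 13, 19 or 21 or control SNI replicate 23 was left out (edgeR adjusted p = 0.0756, 0.146, 0.157 and 0.0743), and kept without control SNI replicate 15 or 18 (0.0235 and 0.0259). The log2 fold change itself stayed between -1.37 and -1.02 in these 6 fits. The call was kept with DESeq2 (adjusted p = 0.00249) and missed with limma-voom (adjusted p = 0.0547), with only the 2 SNI groups in the fit (0.316) and with Wnt1-Cre controls only (0.0762, 1 control SNI library). The naive comparison was called with DESeq2 (adjusted p = 0.0387). It was also called in an edgeR fit of the naive libraries alone with a term for the animal number range (adjusted p = 0.0062). Within animals numbered 1041 to 1056 the naive knockout minus control difference in mean log2 CPM was -0.84 (2 knockout and 3 control libraries), and within 1079 to 1082 it was -0.74 (2 of each). The average of the naive and the SNI knockout effect, a contrast added after the values were seen, used all 15 libraries and was -0.99 (SE 0.17, 95% interval -1.35 to -0.62, edgeR adjusted p = 0.00292), where 4.17% of all tested genes were called. This average was called in each of the 15 fits without 1 library (edgeR adjusted p from 0.00151 to 0.0127) and in the 4 other alternatives (adjusted p from 1.03e-05 to 0.00485). Of the 4 markers, Slc17a8 was the 1 called in it.

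**Figure D3:**
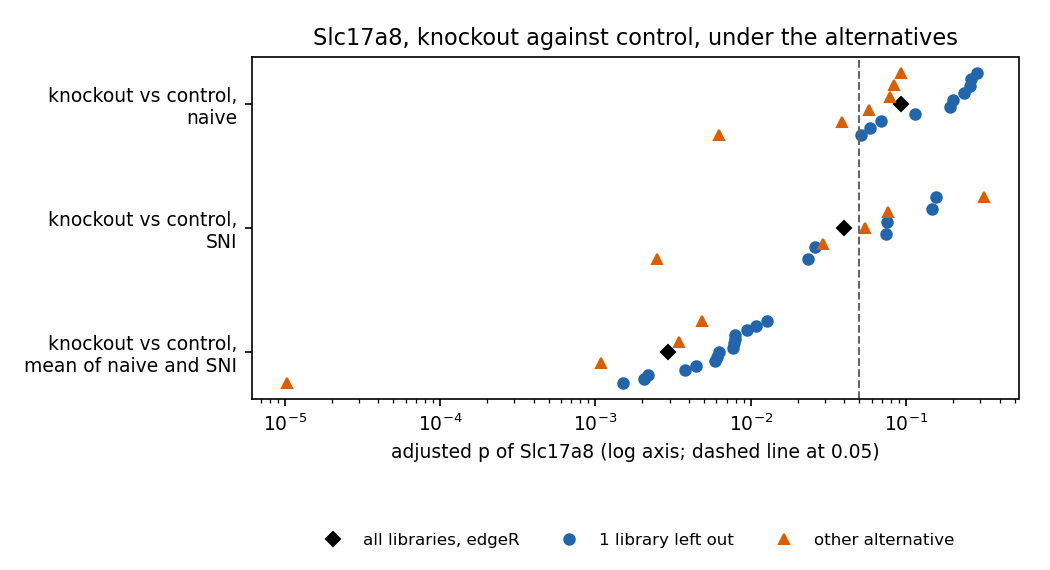
Adjusted p of Slc17a8 on a log axis for knockout against control in naive animals, after SNI and for the mean of both, with all libraries (diamonds), with 1 library left out (circles) and under the other alternatives (triangles). The mean of naive and SNI is a contrast added after the values were seen, and its fits share libraries. All its points lie left of the dashed line at 0.05, between 1.03e-05 and 0.0127. The naive and SNI points lie on both sides of it.

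Of the 5 genes of the Slc17 family on the list, all were tested. After SNI 1 of them, Slc17a8, was called in knockout against control, where 1.04% of all tested genes were. None was called in naive knockout against control or for injury. Of all tested genes, 1.89% were called there in naive animals, 2.48% for injury in control and 10.1% for injury in knockout. Whether Slc17a8 differs from the other transporters was not tested. Slc17a6 (VGLUT2), which most DRG neurons use, averaged 268 ± 12.1 CPM in knockout naive and 257 ± 14.5 CPM in control naive ganglia, a log2 fold change of 0.06. After SNI it averaged 266 ± 24.8 CPM in knockout and 277 ± 22.5 CPM in control, a log2 fold change of -0.06. Slc17a7 (VGLUT1), used mainly by large myelinated neurons, had log2 fold changes of -0.31 in naive and 0.20 in SNI animals (edgeR adjusted p = 0.547 and 0.583). Slc17a6 and Slc17a7 are named here outside the naming rule, after their values were seen.

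Tafa4 encodes a secreted protein of C-LTMRs that dampens mechanical pain in mice. After SNI it measured 39.8, 26.3 and 31.4 CPM in knockout libraries, against 48.6, 37.1 and 65.6 CPM in control libraries. Knockout replicate 13 lay above control replicate 18, and the highest value was that of control replicate 23, the library with the lowest depth. The means were 32.5 ± 6.81 and 50.4 ± 14.4 CPM (SD, n = 3 each), with a log2 fold change of -0.62 (SE 0.17, 95% interval -0.99 to -0.26, edgeR adjusted p = 0.0888). Without control replicate 23 the log2 fold change was -0.40 (edgeR adjusted p = 0.249), and without control replicate 15 or 18 Tafa4 was called (edgeR adjusted p = 0.0298 and 0.0201), as it was with DESeq2 (adjusted p = 0.0249). In naive animals it measured 40.8, 48.2, 43.2 and 41.5 CPM in knockout libraries, against 49.5, 54.7, 46.8, 45.6 and 47.4 CPM in control libraries, and only knockout replicate 5 reached the control range. The naive log2 fold change was -0.17 (SE 0.14, 95% interval -0.46 to 0.13, edgeR adjusted p = 0.754). For SNI against naive, all 3 injured knockout libraries lay below all 4 naive ones, with a log2 fold change of -0.42 (SE 0.16, edgeR adjusted p = 0.104), against 0.03 (SE 0.15, edgeR adjusted p = 0.943) in control. The value in knockout was called without knockout SNI replicate 13 (edgeR adjusted p = 0.0419) or control SNI replicate 23 (0.0197), with the 2 groups alone (0.0225) and with Wnt1-Cre controls only (0.014). In the mean of naive and SNI, knockout against control was -0.40 for Tafa4 (edgeR adjusted p = 0.0541), and it was called without knockout SNI replicate 13 (0.0232) or control SNI replicate 15 (0.0406) or 18 (0.00846), with DESeq2 (0.0229) and with Wnt1-Cre controls only (0.0345). The difference of -0.46 between the 2 injury effects had a 95% interval of -0.92 to 0.01 (edgeR adjusted p = 0.379). In the order of levels, knockout SNI, knockout naive, control naive and control SNI followed each other from low to high, and no pair of neighbours passed the test.

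Of the 8 tested Tafa ligands and reported receptors, 0 were called in naive knockout against control, where 1.89% of all tested genes were. After SNI, where 1.04% of all tested genes were called, 1 was lower in knockout, the related ligand gene Tafa2. It averaged 39.5 ± 4.25 CPM against 59.5 ± 9.64 CPM in control (log2 fold change -0.59, edgeR adjusted p = 0.0467). That call was lost without knockout SNI replicate 13, 19 or 21 or control SNI replicate 23, at edgeR adjusted p values of up to 0.215, and with limma-voom, with the 2 groups alone and with Wnt1-Cre controls only. In the mean of naive and SNI, the contrast added after the values were seen, 4.17% of all tested genes were called. There Tafa2 was lower (-0.42, edgeR adjusted p = 0.0092) and Tafa5 higher (0.42, edgeR adjusted p = 0.0106). Tafa5 was not called with Wnt1-Cre controls only, which leave 1 control SNI library. In knockout SNI against knockout naive, 1 of the 8 was called, where 10.1% of all tested genes were. This was Lrp1, a broad endocytic receptor reported for TAFA4, which was higher at 266 ± 22.2 CPM in SNI against 181 ± 11.1 CPM in naive ganglia (log2 fold change 0.55, edgeR adjusted p = 0.0205). Leaving out knockout naive replicate 8 or knockout SNI replicate 19 or 21 ended that call (edgeR adjusted p = 0.0567, 0.116 and 0.0607). The formyl peptide receptor genes of the list, Fpr1 and Fpr2, averaged 1.01 to 2.51 CPM in all 4 groups.

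Th encodes tyrosine hydroxylase, the rate-limiting enzyme of catecholamine synthesis. In naive animals it measured 77.0, 85.4, 89.5 and 92.6 CPM in knockout libraries, against 80.2, 99.7, 96.4, 108 and 94.3 CPM in control libraries. The groups overlapped through control replicate 1, and their means were 86.1 ± 6.79 (SD, n = 4) and 95.7 ± 10.1 CPM (SD, n = 5). The log2 fold change was -0.15 (SE 0.18, 95% interval -0.54 to 0.23, edgeR adjusted p = 0.865). After SNI it measured 111, 54.7 and 89.2 CPM in knockout libraries, against 119, 65.1 and 97.1 CPM in control libraries. Each SNI group spanned about the same wide range, with 1 low, 1 middle and 1 high library. The SNI means were 84.9 ± 28.3 and 93.7 ± 27.0 CPM (SD, n = 3 each), with a log2 fold change of -0.14 (SE 0.22, 95% interval -0.62 to 0.33, edgeR adjusted p = 0.729). For SNI against naive the log2 fold change of Th was -0.02 in knockout (95% interval -0.46 to 0.42) and -0.03 in control (95% interval -0.45 to 0.39). The difference between these injury effects was 0.01 (95% interval -0.60 to 0.62). The intervals of Th for knockout and for injury still allow a log2 fold change as low as -0.62, and one of the size seen for Slc17a8 after SNI lies outside all 4 of them. The order of its levels from low to high was knockout SNI, knockout naive, control SNI and control naive, and no neighbours differed beyond their spread. Of the 16 genes listed for the catecholamine and tetrahydrobiopterin route, which includes the cofactor enzymes, 12 were tested. None of the 12 was called in knockout against control or SNI against naive. Of all tested genes, 1.89% (naive) and 1.04% (SNI) were called for the knockout, and 2.48% (control) and 10.1% (knockout) for injury.

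Cdh9 encodes a classical type II cadherin. After SNI it measured 9.86, 5.49 and 7.50 CPM in knockout libraries, against 9.91, 10.6 and 18.3 CPM in control libraries. The groups did not overlap, but the highest knockout library and the lowest control library were almost equal, and control replicate 23 stood well above the others. The means were 7.62 ± 2.19 and 12.96 ± 4.67 CPM (SD, n = 3 each), with a log2 fold change of -0.74 (SE 0.25, 95% interval -1.26 to -0.22, edgeR adjusted p = 0.13). Without control SNI replicate 23 the log2 fold change was -0.44 (edgeR adjusted p = 0.413), and without control SNI replicate 15 it was -0.90 and called (edgeR adjusted p = 0.0245). In naive animals it measured 12.3, 13.8, 10.1 and 8.62 CPM in knockout libraries, against 11.0, 11.8, 12.6, 10.8 and 9.60 CPM in control libraries, with equal means of 11.2 ± 2.29 (SD, n = 4) and 11.2 ± 1.13 CPM (SD, n = 5). The naive log2 fold change was 0.01 (SE 0.19, 95% interval -0.40 to 0.41, edgeR adjusted p = 0.998). For SNI against naive it was -0.57 in knockout (SE 0.23, edgeR adjusted p = 0.119) and 0.17 in control (SE 0.21, edgeR adjusted p = 0.735). The value in knockout was called without control SNI replicate 23 (edgeR adjusted p = 0.03) and with Wnt1-Cre controls only (0.0284). The difference between the injury effects was -0.75 (95% interval -1.40 to -0.09, unadjusted p = 0.0291, edgeR adjusted p = 0.365). From low to high its levels ran knockout SNI, the 2 equal naive groups and control SNI, without a step that passed the test. Cdh9, the marker with the miR-183-5p 7mer-A1, was not called higher in knockout ganglia in either state. Whether the site acts on Cdh9 was not tested. An annotated antisense gene, Gm49127, overlaps Cdh9 and has no row in the count table, and the strand setting of the counting is not given in the sources used here, so reads of the 2 cannot be told apart.

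Of the 13 type II cadherins tested, 3 were called in naive knockout against control, all downward, where 1.89% of all genes were called. In all 9 of the 13 lay below 0 and 4 above it, among them Cdh9 itself. Cdh8 averaged 16.4 ± 1.09 CPM in knockout naive and 23.1 ± 1.55 CPM in control naive ganglia (log2 fold change -0.49, edgeR adjusted p = 0.00895). Cdh12 averaged 7.88 ± 1.23 CPM in knockout naive and 13.2 ± 1.17 CPM in control naive ganglia (log2 fold change -0.75, edgeR adjusted p = 0.00798), and both calls held in each of the 10 fits without 1 library. The call of Cdh20 (-0.62, edgeR adjusted p = 0.036) held in 2 of those 10 fits, those without knockout naive replicate 8 or control SNI replicate 23, with edgeR adjusted p values of up to 0.137 in the others, and was lost with no filter (0.0697). After SNI 1 of 13 was called in knockout against control, Cdh8 at -0.52 (edgeR adjusted p = 0.0401), which was lost without knockout SNI replicate 13, 19 or 21 or control SNI replicate 23, at edgeR adjusted p values of up to 0.196, and with limma-voom, with no filter, with the 2 groups alone and with Wnt1-Cre controls only. For SNI against naive, Cdh12 was lower in control (-0.64, edgeR adjusted p = 0.0365) and Cdh5, the cadherin of vessel endothelium, higher in knockout (0.57, edgeR adjusted p = 0.0398). Of all tested genes, 2.48% were called for injury in control and 10.1% in knockout. Of 8 fits without 1 library, the call of Cdh12 held in the 2 without control SNI replicate 15 or 23 and that of Cdh5 in the 2 without knockout SNI replicate 13 or control SNI replicate 23, at edgeR adjusted p values of up to 0.154 and 0.161 in the others. The call of Cdh12 for injury was also lost with the 2 groups alone (edgeR adjusted p = 0.0891) and with Wnt1-Cre controls only (0.34). In the mean of naive and SNI, the contrast added after the values were seen, 4.17% of all tested genes were called. There Cdh8, Cdh12 and Cdh18 were called lower in knockout (-0.50, -0.62 and -0.40). Cdh9 itself was not called (-0.36, edgeR adjusted p = 0.21).

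Of 11 further genes known from C-LTMRs, such as the mechanical channel gene Piezo2 and the growth factor receptor genes Ret and Gfra2, all were tested. In knockout naive ganglia 1 was called, where 1.89% of all tested genes were. In that comparison 8 lay below 0 and the median log2 fold change was -0.21, beside 0.00 for all genes. The called gene was Bhlha9, a basic helix-loop-helix transcription factor gene, with 4.78, 4.66, 6.18 and 6.40 CPM in knockout naive libraries, against 9.06, 13.4, 8.68, 12.0 and 9.88 CPM in control naive libraries. All 4 knockout libraries lay below all 5 control libraries (log2 fold change -0.95, SE 0.23, edgeR adjusted p = 0.0396). This call was lost in each of the 9 fits without 1 naive library, with edgeR adjusted p values from 0.0516 to 0.158. After SNI Bhlha9 measured 3.67, 2.18 and 5.70 CPM in knockout libraries, against 8.45, 5.27 and 8.85 CPM in control libraries (log2 fold change -0.94, edgeR adjusted p = 0.118). After SNI 0 of the 11 were called in knockout against control, where 1.04% of all tested genes were. Their median was -0.04, beside -0.01 for all genes. In both states 7 of the 11 lay below 0, against 26.8% of all tested genes. The same held for 7 of 8 markers of Mrgprd nociceptors, 6 of 8 of somatostatin pruriceptors and 3 of 8 of peptidergic nociceptors. It held for 2 of 10 A-fibre low-threshold mechanoreceptor markers and 1 of 10 pan-sensory neuron markers. For injury 0 of the 11 were called in either genotype, with medians of 0.04 in knockout and -0.08 in control. Over all tested genes the medians were -0.02 in knockout and 0.02 in control, and 10.1% and 2.48% were called. In the mean of naive and SNI, Bhlha9 was the 1 called (-0.95, edgeR adjusted p = 0.00702), where 4.17% of all tested genes were. That contrast was added after the values were seen. Bhlha9 was called in it in all 15 fits without 1 library.

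**Figure D4:**
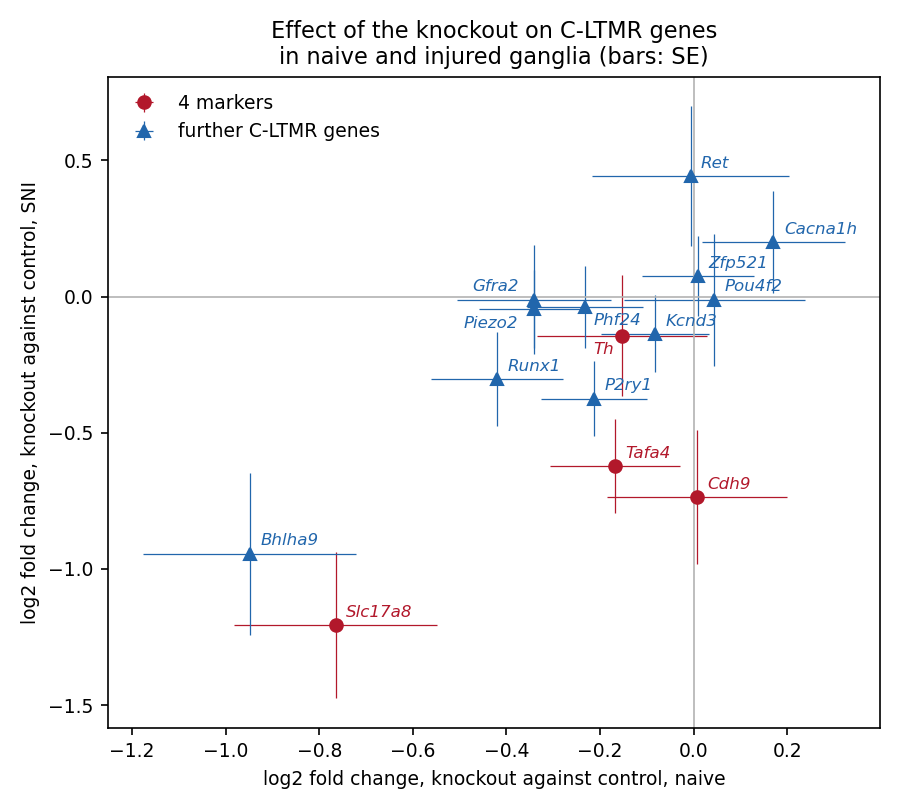
Log2 fold change of knockout against control in naive animals (horizontal axis) and after SNI (vertical axis) for the 4 markers (circles) and 11 further C-LTMR genes (triangles), with SE as bars. Slc17a8 (-0.76 and -1.21) and Bhlha9 (-0.95 and -0.94) lie at the lower left, apart from the other genes.

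Markers of the other cells of the ganglion were read beside these results. For the 10 pan-sensory neuron markers, the summed level was 10001 to 10307 CPM in knockout SNI and 8768 to 9643 CPM in control SNI libraries, and 8953 to 9743 CPM in knockout naive and 8046 to 9300 CPM in control naive libraries. Single genes of the list went both ways in knockout SNI against control SNI, with 6 of the 10 below 0 and a median log2 fold change of -0.08, and in naive animals 2 of the 10 lay below 0, with a median of 0.08. None of the 10 was called in knockout against control in either state, and their part in the results was not tested. In naive knockout against control, all 8 tested markers of Mrgprd nociceptors had a log2 fold change below 0, with a median of -0.81, and 5 of the 8 were called, where 1.89% of all genes were. All 8 markers of somatostatin pruriceptors lay below 0 too, with a median of -0.56 and 1 called. After SNI, where 1.04% of all genes were called, 7 and 6 of the 8 lay below 0, with medians of -0.43 and -1.08, and 0 and 2 were called. Of the 8 peptidergic nociceptor markers 4 lay below 0 in each state, with medians of 0.01 and -0.21, and 0 and 1 were called. Of the 10 A-fibre low-threshold mechanoreceptor markers 5 lay below 0 in each state, with medians of 0.01 and 0.03, and 2 (1 higher, 1 lower) and 0 were called. No marker of satellite glia, myelinating Schwann cells, macrophages, or fibroblasts and vessels was called in knockout against control in either state. With injury 5 of the 8 macrophage markers were called higher in knockout and 7 of the 8 in control, and 0 of the 6 Schwann cell markers were called in either genotype. Of all tested genes, 10.1% were called for injury in knockout and 2.48% in control. The C-LTMR markers were not tested against any of these lists. All 6 skeletal muscle markers lay above 0 in knockout SNI against control SNI, with a median log2 fold change of 2.39 and 0 of 6 called. Their summed level was 177 to 1398 CPM in knockout SNI, 6.47 to 349 CPM in control SNI, 17.6 to 200.2 CPM in knockout naive and 5.28 to 103 CPM in control naive libraries. The part of this muscle RNA in the results was not tested. Chrna3, which averaged higher in knockout naive ganglia by 0.99 on the log2 scale (edgeR adjusted p = 0.0121), was not called without knockout naive replicate 8 (edgeR adjusted p = 0.0622).

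No pair of the 4 markers passed a test of correlation among libraries of the same group. Deviations of log2 CPM from the group means were compared over 15 libraries for all 6 pairs, by permutation within groups and with Benjamini-Hochberg adjustment over the 6. Where the libraries farthest from a median were left out, the group means still included them, so those r are not free of these libraries. Group means were taken anew only when control SNI replicate 23 was left out. Tafa4 and Cdh9 had the highest correlation (Pearson r = 0.778, permutation p = 0.0247, adjusted p = 0.0827; Spearman rho = 0.65, permutation p = 0.0488, adjusted p = 0.146). It was r = 0.715 without the 2 libraries farthest from the median of Tafa4, and 0.619 (permutation p adjusted over the 6 pairs = 0.214; rho = 0.398, adjusted permutation p = 0.382) without control SNI replicate 23. With knockout SNI replicates 13 and 19, then the farthest in Tafa4, left out as well, it was 0.222. The relation of Tafa4 and Cdh9 thus changed with the libraries left out, and which libraries carry it was not tested. Th and Tafa4 had r = 0.65 (adjusted permutation p = 0.298; rho = 0.411, adjusted permutation p = 0.503), which was 0.291 without knockout SNI replicate 19 and control SNI replicate 18. It was 0.776 without control SNI replicate 23 alone. With the other 2 left out as well, from group means that included them, it was 0.579. Th and Slc17a8 had r = 0.439 (permutation p = 0.0276, adjusted 0.0827; rho = 0.529, adjusted permutation p = 0.146), and 0.501 without the same 2 libraries. Th and Cdh9 had r = 0.353 (adjusted permutation p = 0.494; rho = 0.232, adjusted permutation p = 0.619) and -0.02 without them. Slc17a8 had r = 0.03 with Tafa4 (adjusted permutation p = 0.932; rho = -0.10, adjusted permutation p = 0.753) and -0.28 with Cdh9 (adjusted permutation p = 0.494; rho = -0.25, adjusted permutation p = 0.588), at 0.107 and -0.22 without its 2 farthest libraries.

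**Figure D5:**
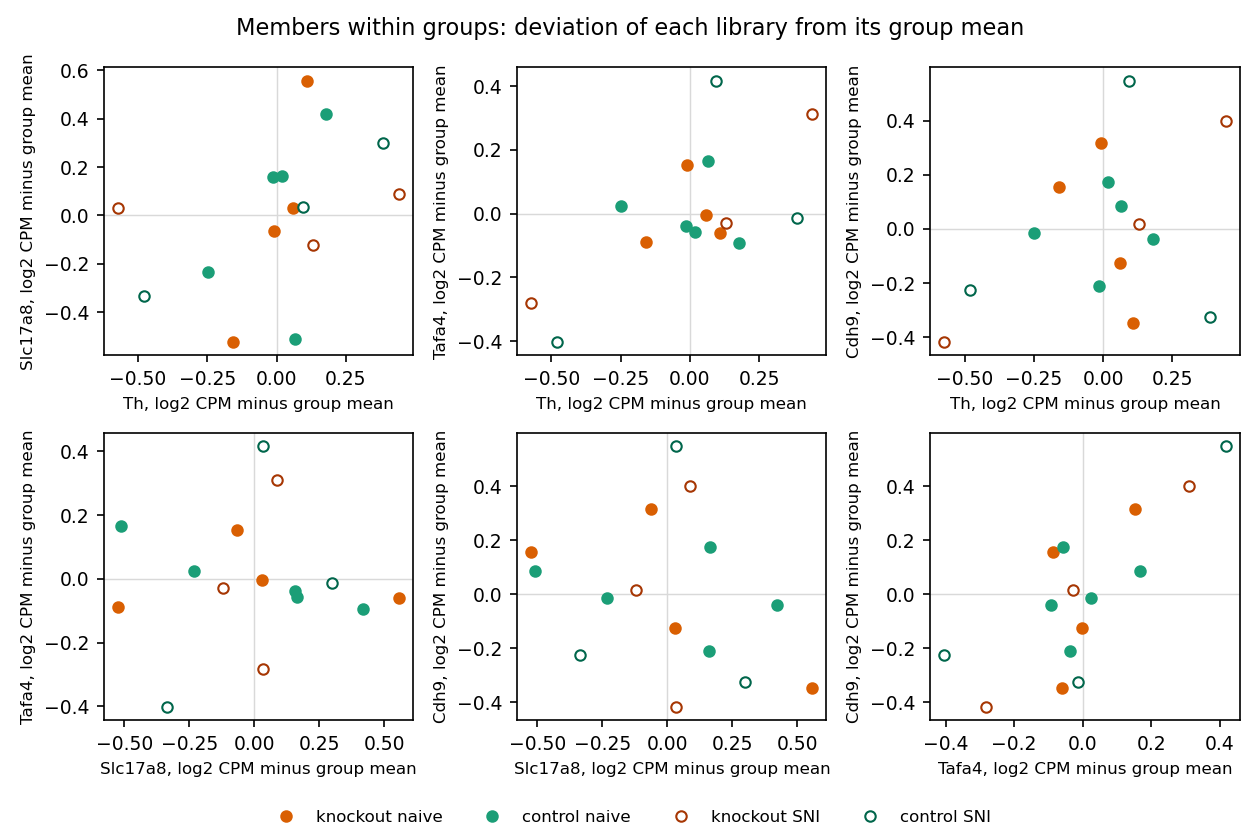
Each panel plots 1 pair of markers as the deviation of log2 CPM from the group mean, with 1 point per library; filled points are naive, open points SNI, orange knockout and green control. Points rise together for Tafa4 and Cdh9 (r = 0.778, or 0.619 without control SNI replicate 23), and show no common slope for Slc17a8 with Tafa4 (r = 0.03).

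Over all 15 libraries, with the group differences left in, the genes whose log2 CPM was most like that of each marker were listed. They were ranked among 14369 other tested genes averaging 1 CPM or more, without predicted, clone or unnamed genes. For Slc17a8 these were Sst, the somatostatin gene (Pearson r = 0.854), Tbc1d1 (0.844) and Slc51a (0.838). For Th they were Ada (0.853), Acpp (0.827) and Pld5 (0.814). For Tafa4 they were Dpp10 (0.948), Snx7 (0.946) and Rab27b (0.936), and for Cdh9 they were Lztfl1 (0.926), Eci2 (0.916) and Zfp983 (0.913). These values describe 15 libraries that differ in depth, genotype and injury, differences that enter every r, and they carry no p. Within groups, the r of Slc17a8 was 0.71 with Sst, 0.596 with Tbc1d1 and 0.386 with Slc51a, and that of Tafa4 was 0.936 with Dpp10, 0.898 with Snx7 and 0.865 with Rab27b. The values within groups were 0.84 to 0.868 for the 3 genes of Th and 0.855 to 0.874 for those of Cdh9. No marker was among the 3 genes most like another marker. The closest was Tafa4, which ranked 32 of 14369 for Cdh9 (r = 0.866), followed by Cdh9, which ranked 78 for Tafa4, and by Tafa4, which ranked 146 for Th (r = 0.61). The marker most like Slc17a8 was Tafa4, at rank 473 (r = 0.545).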

How the data were processed

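The authors deposited unnormalised read counts per gene (count unit) for 15 DRG libraries. Per the labels' protocols, RNA was isolated with Trizol and prepared with the TruSeq Stranded mRNA kit. The genome build GRCm38 and the tools HTSeq 0.6.1, TopHat2 2.0.4, Cufflinks, DESeq2 and SAMtools are listed, with no role or order, in the submitters' processing notes. Neither annotation release nor strand setting is given in the sources used here.

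Symbols, coordinates and 3′ UTRs came from GENCODE M21 (GRCm38), which names 37607 of 39179 identifiers. The 16976 genes kept by filterByExpr (minimum count 10) were fitted in 1 model of 4 group means with edgeR 4.0.16 (TMM, robust quasi-likelihood F test, 11 residual degrees of freedom, two-sided), tested first on simulated data. Calls are genes with a p under 0.05 after Benjamini-Hochberg adjustment over all tested genes. Levels are TMM-scaled CPM, and log2 CPM used a prior count of 2. The SE is the log2 fold change divided by the square root of F. Intervals are 95% and not adjusted.

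Alternatives were DESeq2 1.42.0, limma-voom (limma 3.58.1), no filter, the compared groups only, Wnt1-Cre controls only, a term for animal number range, and each library left out. The term for animal number range was fitted on the naive libraries only. Correlations used 100000 permutations within groups. Software was R 4.3.3 and Python 3.11.15 with pandas 2.3.3, matplotlib 3.10.9, SciPy 1.17.1 and NumPy 2.4.6.

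The members and gene lists were chosen with earlier results of these data known. Named are the 4 members, up to 4 called genes with the smallest p per list and comparison (not all are named), and the 3 genes most like each member, without predicted and clone names. Other list genes named (the sympathetic markers, Fpr1, Fpr2, Piezo2, Ret and Gfra2) were picked with their values known.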

Additional observations from a re-analysis of the deposited data

How the results depend on the processing

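Of 364 values of the 4 markers under alternatives, 314 kept their direction and their side of the threshold, 7 lost a call, 17 gained one and 26 turned direction (18 of Th, 6 of Cdh9, 2 of Tafa4 and 0 of Slc17a8). Turns outside the fits that leave out a library were, with limma-voom, -0.024 for Tafa4 (SNI against naive, control) and -0.010 for Th (difference between injury effects). With Wnt1-Cre controls only they were -0.038 for Cdh9 (knockout against control, naive), 0.33 for Th and -0.21 for Cdh9 (SNI against naive, control), and -0.34 for Th (difference between injury effects). That setting leaves 1 control SNI library, assumed to vary like the others. Where a value turned with 1 library left out, the range over all fits without 1 library, turned or not, is given. It was -0.11 to 0.11 for Cdh9 in naive knockout against control. In control SNI against naive it was -0.12 to 0.33 for Cdh9 and -0.18 to 0.22 for Tafa4. For Th it was -0.25 to 0.18 (control injury), -0.26 to 0.22 (knockout injury), -0.38 to 0.094 (knockout against control, SNI) and -0.23 to 0.25 (difference).

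The number of markers called in naive knockout against control was 0, and 1 with DESeq2 or the animal number term. After SNI it was 1, 2 with DESeq2 and 0 with limma-voom, the 2 groups only or Wnt1-Cre controls only, and 0 to 3 without 1 library. For injury in knockout it was 0, 1 with the 2 groups only, 2 with Wnt1-Cre controls only and 0 to 2 without 1 library. For the mean effect it was 1, 2 with DESeq2 or Wnt1-Cre controls only and 1 to 2 without 1 library. The cause of these changes was not tested. Over all genes, calls ranged from 151 to 1017 around 321 (naive), 213 to 1506 around 421 and 587 to 4745 around 1717 (injury in control and knockout), 0 to 3558 around 177 (SNI), 480 to 2009 around 708 (mean) and 0 to 1235 around 0 (difference).

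No paired analysis was possible because each library came from a different mouse and the labels pair no animals across groups. Counting error weighs most on Slc17a8 and Cdh9, with 42 and 58 counts in their lowest libraries.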
